A study of Homo sapiens with 6 samples.

Results

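Glycolysis, the factors that control HIF (hypoxia-inducible factor) and the genes that HIF induces were followed in MDA-MB-231, an established human cell line of triple-negative breast cancer, as 45 listed genes. A gene entered when the array's annotation gave it a transcript of its own, under its current or an older symbol. This held for 38 of the 45, out of 22011 transcripts and 14220 genes with a transcript of their own. SLC2A3 and EGLN1 have only transcripts that list another gene too, and PGAM1, SLC16A1, SLC16A3, CA9 and ANKRD37 matched no transcript, so these 7 genes are named only. No filter on low values was applied. The cells were grown in DMEM with serum and transfected by lipofection either with control siRNA (siCon, 3 arrays) or with siRNA to HMGA1 (siHMGA1, 3 arrays), and RNA was taken at 48 hours. Some labels call the treatment shHMGA1, while the source names, the treatment protocol and the methods give siRNA, and it is called siRNA here. HMGA1 encodes a chromatin protein that binds AT-rich DNA. The cells are populations of 1 cell line, the labels number the arrays of each treatment 1 to 3 as biological replicates, and no source used here says whether arrays of the same number shared a day, a culture batch or an oxygen level.

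Glycolysis splits glucose into pyruvate, and lactate dehydrogenase turns pyruvate into lactate, which leaves the cell through carriers together with a proton. HIF1A and EPAS1 (HIF-2 alpha) are the oxygen-regulated subunits of a transcription factor whose stable partner is ARNT. In the presence of oxygen the prolyl hydroxylases EGLN1, EGLN2 and EGLN3 mark the alpha subunits, VHL recognises the mark and the protein is degraded, while HIF1AN hydroxylates an asparagine and blocks coactivator binding. This control acts on the protein, and the mRNA measured here does not report it. Many glycolytic genes, PDK1, EGLN3, NDRG1 and the surface carbonic anhydrases CA9 and CA12 are known HIF targets in cancer cells.

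Each array gave 1 log2 value per transcript, already normalized between arrays by the authors with the RMA algorithm. Array medians lay between 8.28 and 8.38, and the correlation between arrays between 0.982 and 0.995. The transcript annotated to HMGA1 together with its pseudogene HMGA1P8 had a mean of 10.24 with control siRNA and 9.74 with HMGA1 siRNA, a difference of -0.50 (SE 0.10) that did not pass adjustment over all transcripts (limma, adjusted p = 0.806). A transcript annotated to HMGA1 together with APOE differed by -0.12 (SE 0.13), with overlapping groups. Among markers of the line, the mesenchymal genes VIM, CD44, AXL, CAV1 and FN1 lay above the 96th percentile of all transcripts, with FN1 lowest at 96.7, while SPARC was at 24.7. Of the markers of blood and endothelial cells, PTPRC lay at 3.23, CD3E at 10.8, PECAM1 at 19.6, HBB at 26.2 and CD14 at 51.3. Triple-negative refers to the progesterone receptor (PGR, at 7.71), the estrogen receptor (ESR1, at 24.5) and amplification of ERBB2, whose transcript lay at 82.3. The luminal or epithelial genes FOXA1 (50.2), CDH1 (54.5) and GATA3 (58.8) lay above the middle of all transcripts. The arrays numbered 3 are compared with the other 4 because earlier results of these data had shown differences there. The p values of that comparison therefore describe these 6 arrays and are no independent evidence. Over all transcripts with HMGA1 siRNA, replicates 1 and 2 differed more from each other (median size 0.238) than replicate 3 from their mean (0.116). Replicate 3 was thus not the array farthest from the rest with HMGA1 siRNA. With control siRNA the order was the reverse (0.098 and 0.144). With 2 arrays against 4, adjusted for treatment, 44 of 22011 transcripts (0.200%) were higher and 59 (0.268%) lower on the replicate 3 arrays (limma, Benjamini-Hochberg adjustment over all transcripts, threshold 0.05).

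On the replicate 3 arrays most genes of the set had higher values, and few of these differences passed the test. Of the 38 genes, 3 rose past the threshold, namely CA12, NDRG1 and PDK1, and none fell. The 3 are 7.89% of the set, beside 0.200% of all transcripts called higher. The genes, like this comparison, were chosen with earlier results of these data known. Shares of the set beside those of all transcripts are thus descriptions and no test. Both replicate 3 arrays lay above all 4 other arrays in 19 of the 38 genes and in 11.4% of all transcripts. Only LDHB had both below the others, where the share over all transcripts was 13.0% (24.4% in either direction). The step from replicates 1 and 2 to replicate 3 was above 0 in both treatments for 26 genes, beside 39.9% of all transcripts, and below 0 in both for 7. Adjusted for treatment, 30 differences were positive and 8 negative. Their median was 0.13 on the log2 scale, where that of all transcripts was 0.028, and they ran from -0.26 (LDHB) to 1.53 (CA12). At an unadjusted p under 0.05 there were 17 genes, or 44.7%, beside 13.9% of all transcripts. The set was brighter than the rest, with a median level of 10.02 beside 8.34 for all transcripts, which include dim ones. With the dimmest 40% left out, 167 of 13206 transcripts and 7 of 36 genes of the set were called higher. In bulk RNA a change in the number of cells that express a gene and a change in RNA per cell cannot be told apart.

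**Figure D1:**
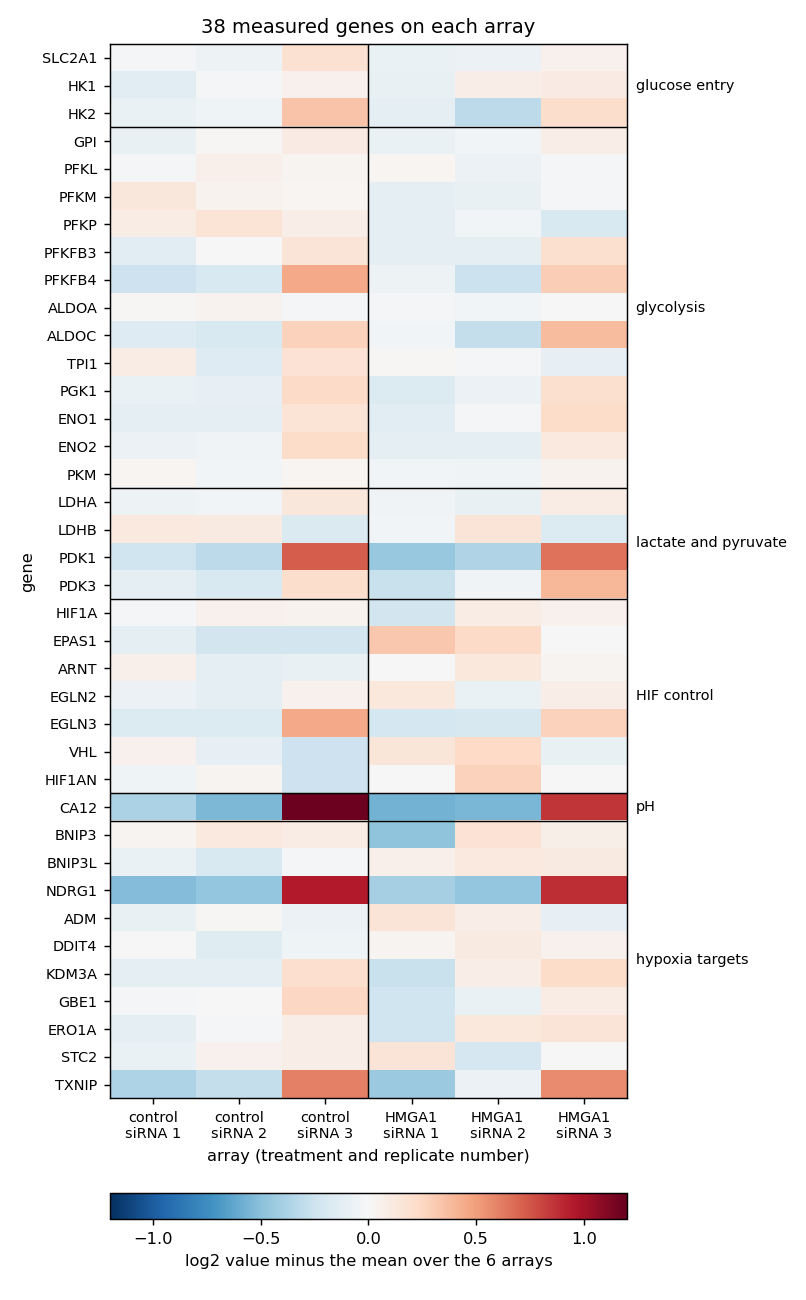
Heat map of the 38 measured genes (rows, grouped by role) on the 6 arrays (columns, treatment and replicate number), coloured by the log2 value minus that gene's mean over the 6 arrays. The columns of replicate 3 are red for CA12, NDRG1, PDK1 and TXNIP in both treatments, and blue for LDHB.

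CA12 encodes a carbonic anhydrase of the cell surface that interconverts carbon dioxide and bicarbonate and takes part in pH control. It was at 8.46 and 8.31 on control siRNA arrays 1 and 2 and at 10.02 on array 3. With HMGA1 siRNA it was at 8.28, 8.30 and 9.71. The 2 replicate 3 arrays thus lay above all others, and the other 4 lay between 8.28 and 8.46. The difference was 1.53 (SE 0.10, adjusted p = 0.0089 from limma), a 2.89-fold higher level, and ranked 5 of 22011 transcripts by size among higher values.

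NDRG1, a cytoplasmic protein induced by hypoxia and by differentiation, was at 10.81, 10.87 and 12.29 with control siRNA and at 10.93, 10.87 and 12.22 with HMGA1 siRNA. Its difference of 1.38 (SE 0.08, adjusted p = 0.0087 from limma) was 2.60-fold and ranked 9. PDK1, the kinase that switches off pyruvate dehydrogenase and so keeps pyruvate from the mitochondrial cycle, was at 10.08, 10.00 and 11.04 with control siRNA and at 9.86, 9.95 and 10.97 with HMGA1 siRNA. Its difference was 1.03 (SE 0.08, adjusted p = 0.0177), or 2.04-fold, and ranked 29. In both genes the arrays numbered 1 and 2 of the 2 treatments lay close together, and neither replicate 3 array overlapped them. These calls rest on few arrays. Leaving out control siRNA replicate 1, 2 or 3 or HMGA1 siRNA replicate 3 left 0 transcripts past the threshold in limma (2097, 1868, 1012 and 1218 at an unadjusted p under 0.05), while the differences of CA12, NDRG1 and PDK1 stayed at 1.42 to 1.64, 1.32 to 1.44 and 1.00 to 1.06. Without HMGA1 siRNA replicate 1 there were 1046 transcripts and 9 genes of the set past it, and without HMGA1 siRNA replicate 2 there were 66 and 4, these 3 genes included both times.

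TXNIP, a thioredoxin-binding arrestin that restrains glucose uptake and is induced by glucose, was at 10.76, 10.85 and 11.73 with control siRNA and 10.69, 11.06 and 11.70 with HMGA1 siRNA. The difference of 0.88 (SE 0.12) was 1.84-fold and missed the threshold (limma, adjusted p = 0.0676), and the replicate 3 arrays did not overlap the others. It passed without HMGA1 siRNA replicate 1 and without HMGA1 siRNA replicate 2, with differences of 0.80 and 0.96 and a smallest adjusted p of 0.0354, and not without any 1 of the other 4 arrays (largest adjusted p = 0.761). Below it in size came PFKFB4 at 0.56, EGLN3 at 0.55, ALDOC at 0.49, PDK3 at 0.45 and HK2 at 0.42, all with both replicate 3 arrays above the other 4 and none past the threshold.

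**Figure D2:**
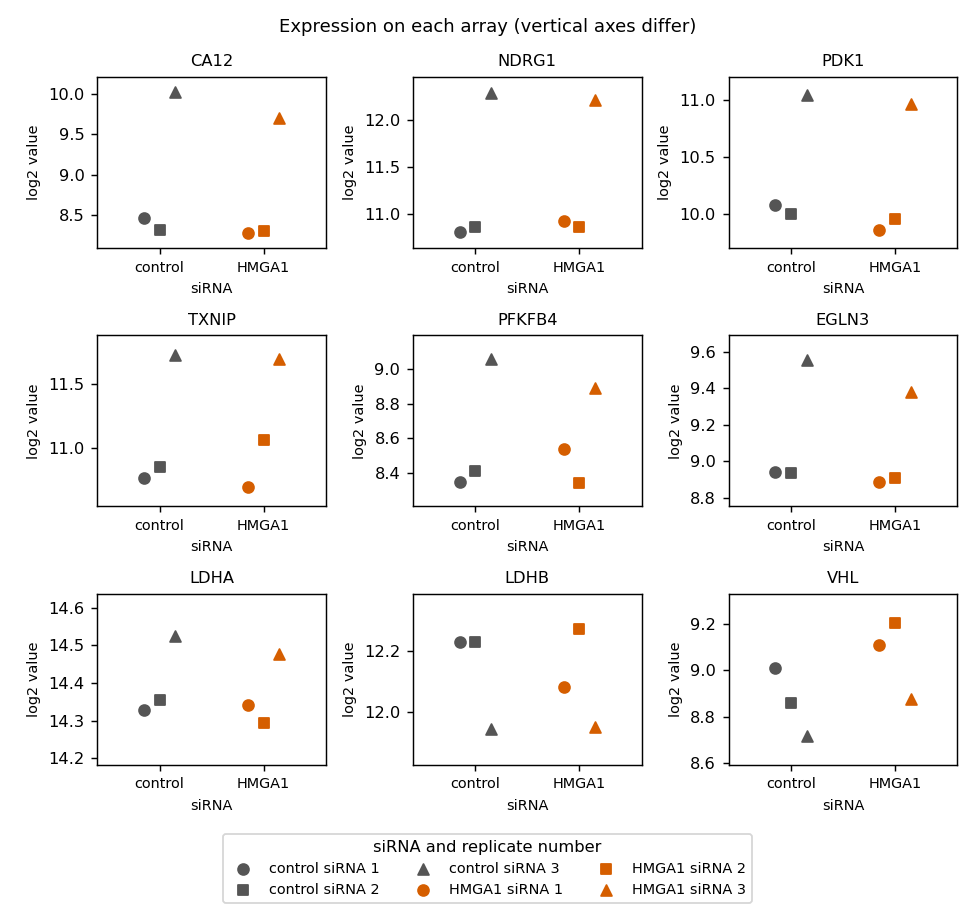
Log2 values of 9 genes on each array (grey, control siRNA; orange, HMGA1 siRNA; circle, square and triangle for replicates 1, 2 and 3), with a vertical axis of its own per gene. The triangles lie above the other symbols for CA12, NDRG1, PDK1, TXNIP, PFKFB4, EGLN3 and LDHA and below them for LDHB, while for VHL they overlap (8.72 and 8.88 against 8.86 for control siRNA replicate 2).

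The upstream stretches of 4 genes are shown, those with the largest replicate 3 difference whose sequence could be shown. CA12 and PDK1 passed the threshold, and TXNIP and PFKFB4 did not. The motifs ACGTG and GCGTG, which HIF is known to bind, were searched as a description, and no binding was measured. Each is the 250 bases before the gene's start in RefSeq (GRCh38.p14), on the gene's strand, with each match of either motif on either strand in capitals. CA12 lies on the minus strand (chr15:63381847-63382096) and has 1 match, at 234 bases before the start. PDK1 lies on the plus strand (chr2:172555123-172555372) and has 0 matches in this window. TXNIP lies on the minus strand (chr1:145996580-145996829) with 2 matches, at 163 and 54 bases before the start. PFKFB4 lies on the minus strand (chr3:48556804-48557053) with 1 match, at 166 bases.
CA12: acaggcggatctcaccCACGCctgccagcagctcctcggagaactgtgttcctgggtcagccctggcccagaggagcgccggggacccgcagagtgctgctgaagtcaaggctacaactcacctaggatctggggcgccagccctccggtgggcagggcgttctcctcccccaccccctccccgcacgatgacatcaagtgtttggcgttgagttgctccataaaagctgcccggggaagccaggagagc
PDK1: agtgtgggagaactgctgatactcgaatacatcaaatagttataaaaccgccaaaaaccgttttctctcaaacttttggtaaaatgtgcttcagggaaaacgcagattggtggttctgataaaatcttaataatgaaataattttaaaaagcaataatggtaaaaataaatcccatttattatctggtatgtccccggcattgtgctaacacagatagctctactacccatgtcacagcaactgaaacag
TXNIP: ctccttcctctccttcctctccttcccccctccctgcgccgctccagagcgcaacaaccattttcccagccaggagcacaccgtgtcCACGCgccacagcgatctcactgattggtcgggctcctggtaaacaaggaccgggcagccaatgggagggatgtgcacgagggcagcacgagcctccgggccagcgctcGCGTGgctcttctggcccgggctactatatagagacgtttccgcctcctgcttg
PFKFB4: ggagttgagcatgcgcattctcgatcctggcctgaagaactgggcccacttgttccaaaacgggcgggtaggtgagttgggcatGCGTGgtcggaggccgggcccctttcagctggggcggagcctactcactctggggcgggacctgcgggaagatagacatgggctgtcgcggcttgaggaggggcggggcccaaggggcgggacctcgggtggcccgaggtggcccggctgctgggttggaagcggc

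Promoters were matched for 40 of the 45 genes, and 27 of these (67.5%) held 1 or both of the motifs, where 43.2% of 35116 promoters of the same length did. ACGTG was in 16 of the 40 and in 18.5% of all promoters, and GCGTG in 19 of the 40 and in 32.2%. Among genes with both replicate 3 arrays above the others 14 of 18 matched promoters held either motif, and among the other measured genes 10 of 17 did. The 35116 promoters were not matched to the genes of the set by gene type or base content, and both motifs contain CG. The shares are thus no test of enrichment. A match is a description of the letters in this window, not a site shown to be bound.

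Glucose entry and the first phosphorylation were represented by SLC2A1, HK1 and HK2. The glucose transporter SLC2A1 was at 13.29, 13.24 and 13.48 with control siRNA and 13.22, 13.23 and 13.35 with HMGA1 siRNA, highest on replicate 3 in both, with a difference of 0.17 (SE 0.08, adjusted p = 0.417 from limma). HK2, the hexokinase that tumors often induce, was at 9.26, 9.28 and 9.68 and at 9.23, 9.02 and 9.54. Its difference of 0.42 (SE 0.09, adjusted p = 0.151) was again without overlap. HK1, the widely expressed hexokinase, differed by 0.11 (SE 0.09), and its arrays overlapped.

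Along the glycolytic chain 11 of 13 measured genes had differences above 0 on replicate 3, beside 12588 of all 22011 transcripts. None passed the threshold. In 8 of the 13 both replicate 3 arrays lay above all the others (61.5%, beside 11.4% of all transcripts). The step was above 0 in both treatments for 8, beside 39.9% of all transcripts. It had the same sign in both for 9 (69.2%), no more than the 70.4% of all transcripts. Among the 11, PFKL (0.0033), PFKM (0.014) and TPI1 (0.062) had steps of opposite sign in the treatments. PGK1, which makes the first ATP of the payoff phase, was at 13.55, 13.54 and 13.86 with control siRNA and 13.47, 13.56 and 13.83 with HMGA1 siRNA, a difference of 0.31 (SE 0.08, adjusted p = 0.185 from limma). The enolase ENO1 was at 13.51, 13.50 and 13.79 and at 13.49, 13.60 and 13.84, a difference of 0.29 (SE 0.08, adjusted p = 0.211), and its neuronal isozyme ENO2 differed by 0.25 (SE 0.08). These 3 genes had nearly the same step in both treatments, 0.32 and 0.31 for PGK1, 0.28 and 0.30 for ENO1 and 0.27 and 0.23 for ENO2.

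PFKFB3 and PFKFB4 make and break fructose 2,6-bisphosphate, the activator of phosphofructokinase. PFKFB4 was at 8.35, 8.41 and 9.06 with control siRNA and 8.54, 8.34 and 8.89 with HMGA1 siRNA, a difference of 0.56 (SE 0.10, adjusted p = 0.113 from limma). PFKFB3 was at 9.36, 9.49 and 9.64 and at 9.37, 9.36 and 9.68, a difference of 0.26 (SE 0.08, adjusted p = 0.255). Phosphofructokinase itself did not separate the arrays. PFKL, PFKM and PFKP differed by 0.0033, 0.014 and -0.073 (SE 0.08, 0.09 and 0.08), and all 3 overlapped between the arrays.

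Of the aldolases, ALDOC was at 8.10, 8.07 and 8.53 with control siRNA and 8.22, 7.97 and 8.64 with HMGA1 siRNA, a difference of 0.49 (SE 0.10, adjusted p = 0.131 from limma), while the main muscle-type aldolase ALDOA differed by -0.015 (SE 0.08). The differences of the isozymes within a pair were not tested against each other. GPI, which isomerises glucose 6-phosphate, differed by 0.13 (SE 0.08) and the pyruvate kinase PKM by 0.054 (SE 0.08), in both cases with the replicate 3 arrays highest by a small margin. The transcript annotated to the isomerase TPI1 lay at the 11.2th percentile of all transcripts, from 5.46 to 5.80, and its replicate 3 step was 0.21 with control siRNA and -0.091 with HMGA1 siRNA.

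At the branch to lactate, LDHA and LDHB moved in opposite directions without passing the threshold. LDHA, the subunit that favours lactate production, was at 14.33, 14.35 and 14.53 with control siRNA and 14.34, 14.30 and 14.48 with HMGA1 siRNA, a difference of 0.17 (SE 0.08, adjusted p = 0.412 from limma). It lies close to the top of the scale of these arrays, where the highest value was 14.66. LDHB, the subunit that favours lactate use, was at 12.23, 12.23 and 11.94 and at 12.08, 12.27 and 11.95, a difference of -0.26 (SE 0.09, adjusted p = 0.291). Both replicate 3 arrays lay below the other 4, which held for no other gene of the set. PDK3, another pyruvate dehydrogenase kinase, was at 8.93, 8.86 and 9.26 and at 8.78, 9.01 and 9.44, a difference of 0.45 (SE 0.10, adjusted p = 0.155), less than the 1.03 of PDK1. The lactate carriers SLC16A1 and SLC16A3 were not measured by transcripts of their own.

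Among the regulators of HIF, the transcripts of the alpha subunits did not separate the replicate 3 arrays. HIF1A was at 12.54, 12.60 and 12.60 with control siRNA and 12.33, 12.64 and 12.61 with HMGA1 siRNA, a difference of 0.074 (95% interval -0.20 to 0.35, adjusted p = 0.838 from limma). EPAS1 was at 10.12, 10.02 and 10.03 and at 10.56, 10.47 and 10.25, a difference of -0.16 (SE 0.09), and ARNT differed by -0.047 (SE 0.09). In each of these 3 genes the replicate 3 arrays overlapped the others.

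EGLN3, the prolyl hydroxylase known to be induced by HIF itself, was at 8.94, 8.93 and 9.56 with control siRNA and 8.89, 8.91 and 9.38 with HMGA1 siRNA. The difference was 0.55 (SE 0.08, adjusted p = 0.0749 from limma), or 1.46-fold, outside the threshold. It passed without HMGA1 siRNA replicate 1 (adjusted p = 0.0391) and in no other fit that left out 1 array. Over these fits the difference ran from 0.48 to 0.62. EGLN2 differed by 0.10 (SE 0.09). VHL was at 9.01, 8.86 and 8.72 and at 9.11, 9.20 and 8.88, a difference of -0.25 (SE 0.09, adjusted p = 0.299), lowest on replicate 3 within each treatment although the arrays overlapped across treatments. HIF1AN was at 8.65, 8.73 and 8.45 and at 8.71, 8.98 and 8.69, likewise lowest on replicate 3 within each treatment, with a difference of -0.20 (SE 0.11). Of the 7 measured regulators 3 thus had positive and 4 had negative differences (median -0.047).

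The remaining hypoxia targets were uneven. The histone demethylase KDM3A was at 8.89, 8.88 and 9.20 with control siRNA and 8.74, 9.08 and 9.23 with HMGA1 siRNA, a difference of 0.32 (SE 0.11, adjusted p = 0.302 from limma). GBE1, the glycogen branching enzyme, was at 9.81, 9.83 and 10.07 and at 9.59, 9.74 and 9.92, a difference of 0.26 (SE 0.09, adjusted p = 0.270). For both genes the replicate 3 arrays lay above the other 4. ERO1A, an oxidase of protein folding in the endoplasmic reticulum, differed by 0.18 (SE 0.12). The mitophagy receptor BNIP3 differed by 0.12 (SE 0.19), with HMGA1 siRNA replicate 1 low at 12.05 and the other arrays between 12.56 and 12.70, and its relative BNIP3L by 0.071 (SE 0.08). The peptide hormone ADM was at -0.12 (SE 0.09), the MTORC1 inhibitor DDIT4 at 0.00 (SE 0.09) and the secreted STC2 at 0.055 (SE 0.12), and none of these 3 separated the arrays.

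**Figure D3:**
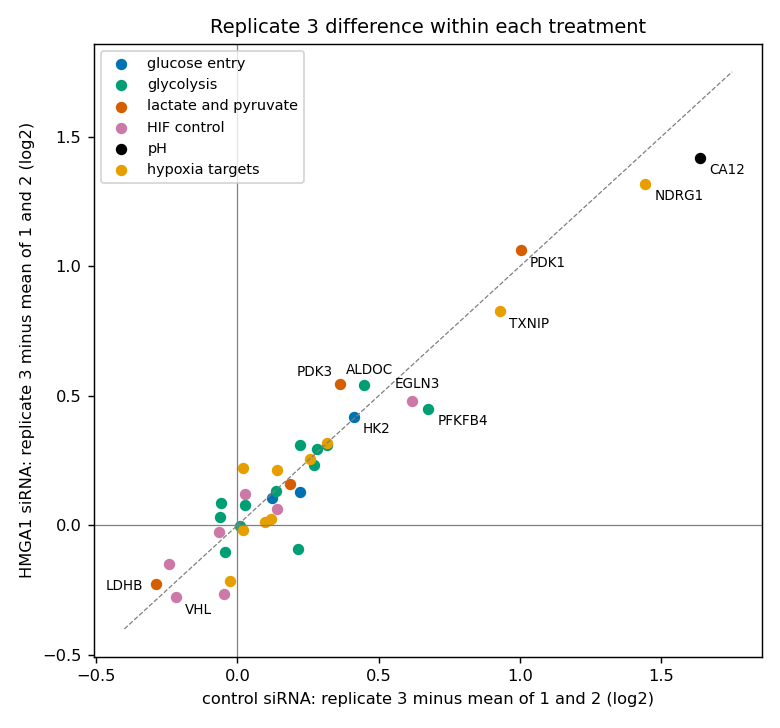
Replicate 3 minus the mean of replicates 1 and 2 within control siRNA (horizontal axis, log2) and within HMGA1 siRNA (vertical axis, log2), 1 point per gene, coloured by role, with a dashed line of equality. CA12 (1.64 and 1.42), NDRG1 (1.44 and 1.32), PDK1 (1.00 and 1.06) and TXNIP (0.93 and 0.83) lie far from the other genes, and LDHB (-0.29 and -0.23) lies below 0 on both axes.

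The replicate 3 steps of the 2 treatments went the same way in most genes, and in some their size differed. With control siRNA and HMGA1 siRNA they were 0.67 and 0.45 for PFKFB4 and -0.047 and -0.27 for EPAS1. The treatments share no array, but whether arrays of the same number shared a day or a culture batch is not known. The step had the same sign in both for 33 of 38 genes (86.8%), beside 70.4% of all transcripts. Its correlation between the treatments was 0.961 over the 38 genes and 0.868 over the 34 without CA12, NDRG1, PDK1 and TXNIP, where it was 0.533 over all transcripts (a description, since genes of an array share its RNA and all arrays were normalized together). The median size of the step was 0.216 with control siRNA and 0.218 with HMGA1 siRNA, while replicates 1 and 2 of these genes differed by a median of 0.073 and 0.096. Over all transcripts with HMGA1 siRNA the order was the opposite, as given above. The test of the difference in the step between treatments (interaction term in limma) called 0 of 22011 transcripts, with 299 (1.36%) at an unadjusted p under 0.05 and none of the 38 genes among these.

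Related genes outside the set were read from lists of the same pathways. These lists too were chosen with earlier results of these data known, so their shares are descriptions and no test. Of 28 other hypoxia targets 23 were above 0 on replicate 3, beside 12588 of all 22011 transcripts. In 16 both replicate 3 arrays lay above the other 4 (57.1%, beside 11.4% of all transcripts), and 2 passed the threshold (7.14%, beside 0.200% called higher). LOX, the lysyl oxidase of collagen crosslinking, was at 9.45, 9.48 and 11.36 with control siRNA and 9.63, 9.69 and 11.38 with HMGA1 siRNA, a difference of 1.80 (SE 0.09, adjusted p = 0.00619 from limma). The collagen hydroxylase PLOD1 differed by 0.68 (SE 0.08, adjusted p = 0.0397), and TMEM45A by 0.62 (SE 0.11, adjusted p = 0.110). Of 19 other genes of glycolysis and pyruvate 10 were above 0 and 9 below, and none passed. Both replicate 3 arrays lay above the other 4 in 4 of them and below in 4, beside 11.4% and 13.0% of all transcripts. The phosphoglucomutase PGM1 was at 0.53 (SE 0.08), the hexokinase-like HKDC1 at -0.61 (SE 0.10) and the phosphatase PDP1, which opposes PDK1, at -0.38 (SE 0.08). Of 5 genes of the pentose phosphate pathway 3 were above 0, with RPE at -0.44 (SE 0.13). Of 10 other HIF regulators 4 were above 0, with the elongin ELOB, a partner of VHL, at -0.52 (SE 0.10), and of 11 genes of pH and proton transport 6, with the bicarbonate transporter SLC4A4 at -0.95 (SE 0.13, adjusted p = 0.0604). None of the last 3 lists had a member past the threshold. In the same order, both replicate 3 arrays lay above the others in 1, 1 and 0 of their genes and below in 2, 2 and 2.

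Other gene groups were read on the same arrays. Of 16 genes of the amino acid stress response, ATF4 and its targets, 12 were below 0 on replicate 3 (median -0.14, none past the threshold in limma). At an unadjusted p under 0.05 there were 4, or 25.0% beside 13.9% of all transcripts. Both replicate 3 arrays lay below the other 4 in 6 of the 16 and above in 0, beside 13.0% and 11.4% of all transcripts. The cystine carrier SLC7A11 was at -0.60. VLDLR, at -0.35, was counted here and among the other hypoxia targets. Of 15 proliferation genes 12 were below 0 (median -0.095, none past the threshold, 2 at an unadjusted p under 0.05, or 13.3%, close to the share of all transcripts). Among the cell line markers, the epithelial cadherin CDH1 was at 9.40, 9.34 and 7.56 with control siRNA and 8.78, 9.01 and 7.28 with HMGA1 siRNA, a difference of -1.71 (SE 0.10, adjusted p = 0.0087), and the fibronectin FN1 was higher by 0.93 (SE 0.11, adjusted p = 0.0443). Of the 5 measured markers of blood and endothelial cells none passed and their differences lay from -0.10 to 0.30. The part of these groups in the values of the glycolysis and HIF genes was not tested.

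Between HMGA1 siRNA and control siRNA none of the 38 genes passed the threshold, and neither did any of the 22011 transcripts (limma, 728 transcripts or 3.31% at an unadjusted p under 0.05). HMGA1 siRNA arrays had the higher mean in 16 genes and the lower mean in 22. The median difference was -0.021, where that of all transcripts was -0.012, and the differences ran from -0.22 (PFKP) to 0.37 (EPAS1). At an unadjusted p under 0.05 there were 2 genes, or 5.26%. The groups did not overlap in 5 genes (13.2%, beside 7.79% of all transcripts). They were higher for EPAS1, BNIP3L and DDIT4 (4.28% of all transcripts) and lower for PFKP and PFKM (3.51%).

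EPAS1, the alpha subunit of HIF-2, averaged 10.06 ± 0.057 (SD, n = 3) on the control arrays. The HMGA1 siRNA arrays averaged 10.43 ± 0.16 (SD, n = 3), a difference of 0.37 (95% interval 0.12 to 0.62, unadjusted p = 0.00989 and adjusted p = 1.00 from limma). The step between arrays of the same number was 0.44, 0.45 and 0.23. Over the settings that leave out 1 array it ran from 0.30 to 0.46, and without both replicate 3 arrays it was 0.44. HIF1A differed by -0.054 (95% interval -0.31 to 0.20) and ARNT by 0.098 (95% interval -0.12 to 0.32). VHL was higher by 0.20 (95% interval -0.090 to 0.49) and HIF1AN by 0.18 (95% interval -0.10 to 0.47), with overlapping groups. Of the 7 regulators of HIF 5 were above 0, and none passed.

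PFKP, the platelet-type phosphofructokinase, averaged 11.70 ± 0.047 (SD, n = 3) on the control arrays. The HMGA1 siRNA arrays averaged 11.48 ± 0.072 (SD, n = 3), a difference of -0.22 (95% interval -0.43 to -0.016, unadjusted p = 0.0379 and adjusted p = 1.00 from limma). The 3 HMGA1 siRNA arrays, at 11.47, 11.55 and 11.41, lay below the control arrays, at 11.68, 11.75 and 11.67. PFKM was at -0.14 (95% interval -0.34 to 0.068), also without overlap, and PFKL at -0.052 (95% interval -0.25 to 0.14). Of the 13 glycolytic genes 11 were below 0, most by little: apart from PFKP and PFKM they lay between -0.072 (ENO2) and 0.047 (ENO1).

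Among hypoxia targets, BNIP3L was higher by 0.19 (95% interval -0.017 to 0.40) and DDIT4 by 0.13 (95% interval -0.078 to 0.33), each with groups that did not overlap. The genes that moved most with replicate 3 gave the widest intervals between treatments, since that step enters the spread of both groups. The interval of CA12 ran from -1.42 to 1.08 around -0.17, that of NDRG1 from -1.11 to 1.15 around 0.015, that of PDK1 from -0.97 to 0.74 around -0.11 and that of TXNIP from -0.72 to 0.79 around 0.034. With a term for replicate number 3 in the fit the intervals were -0.40 to 0.050, -0.18 to 0.21, -0.31 to 0.076 and -0.25 to 0.32, and no gene of the set passed (EPAS1 had the smallest adjusted p, 0.794). CA12, NDRG1 and PDK1 were singled out by their replicate 3 difference, so its size beside the treatment difference is no test. The steps between treatments at the same number lay between -0.32 and 0.12 for these 3 genes.

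**Figure D4:**
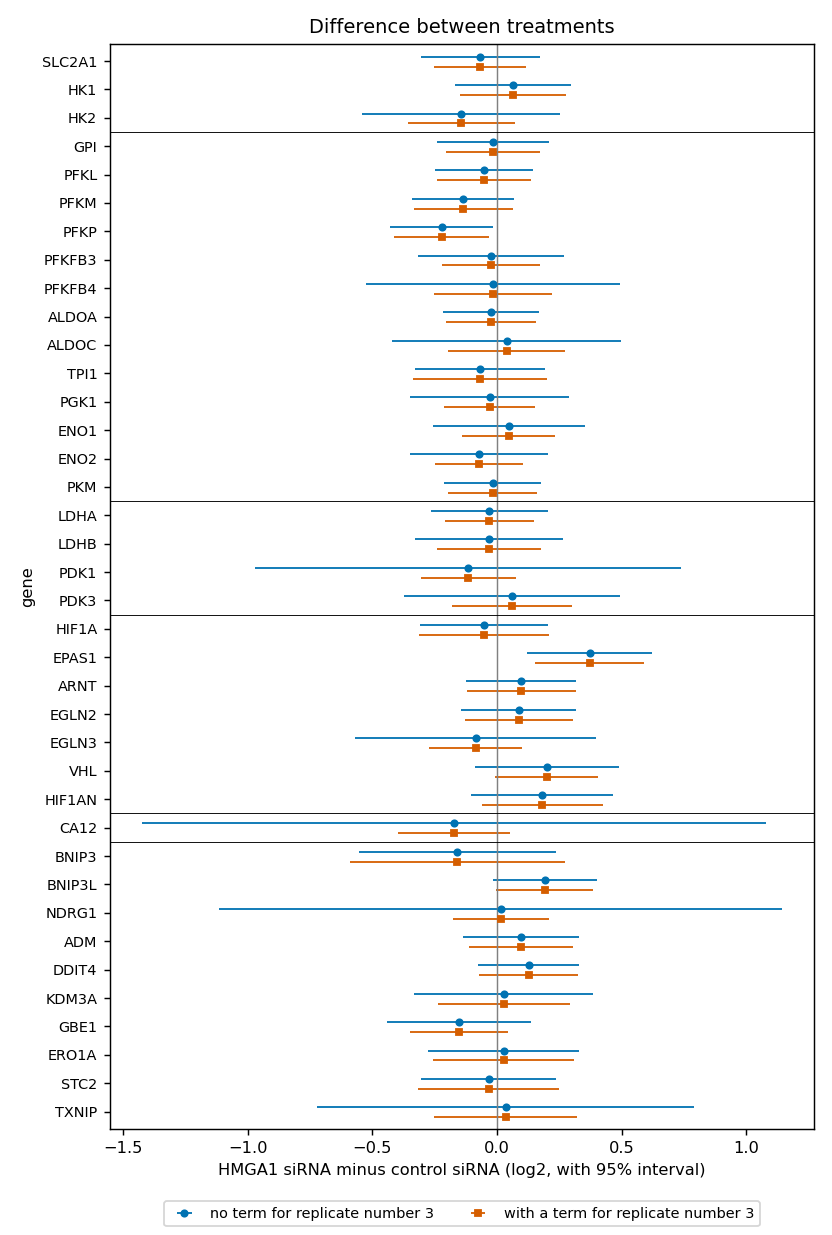
HMGA1 siRNA minus control siRNA for the 38 genes (log2, points) with 95% intervals from limma, without (blue circles) and with (orange squares) a term for replicate number 3. The blue intervals of CA12, NDRG1, PDK1 and TXNIP are the widest, the orange ones of these genes are narrower, and EPAS1 and PFKP are the genes whose intervals do not reach 0.

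Other genes of the same pathways gave no call between the treatments either. MPC2, a subunit of the mitochondrial pyruvate carrier, was at 9.88, 9.85 and 9.77 with control siRNA and 10.03, 10.30 and 10.17 with HMGA1 siRNA, a difference of 0.33 (SE 0.10, adjusted p = 1.00 from limma) without overlap. Of the 28 other hypoxia targets 12 were above 0 and 16 below (median -0.024). The 73 measured genes of all the pathway lists together held 2 at an unadjusted p under 0.05, MPC2 and the angiogenic factor VEGFA. That is 2.74%, no more than the 3.31% of all transcripts. The proliferation genes were above 0 in 13 of 15 with a median of 0.12, and none passed.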

How the data were processed

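RNA of 6 samples (3 control siRNA, 3 HMGA1 siRNA, 48 hours) was hybridized to Affymetrix Human Exon 1.0 ST arrays. The authors deposited log2 values per transcript, made by RMA (background correction, normalization between arrays and probe summary) in the oligo package, and the submitters' processing notes also name hg18 and limma, without versions. RMA leaves some background in dim transcripts, which compresses their differences. All 6 value columns were used as deposited, with no filter. Gene names came from the annotation of the platform (14432 with 1 symbol, 2408 with several, 5171 unnamed), updated through RefSeq (GRCh38.p14), with the highest-mean transcript per gene.

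Groups were compared in R 4.3.3 with limma 3.58.1 (lmFit, eBayes, two-sided, Benjamini-Hochberg over 22011 transcripts, threshold 0.05), without covariates for the treatment and with a treatment term for replicate 3 against replicates 1 and 2. The labels call the arrays biological replicates, and the number of arrays limits precision. Steps were tested on simulated data. The named genes are all listed genes with a transcript of their own, array values being given for those that passed or that hold a key role, and up to 3 genes of smallest p per other list. The genes, lists and the comparison of replicate 3 were chosen with earlier results of these data known. Alternatives were other normalizations, priors, weights, filters, thresholds, transcript choices, terms and leaving out arrays. A stretch of HIF protein was planned and not used here. Figures were drawn with matplotlib 3.10.9.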

Additional observations from a re-analysis of the deposited data

How the results depend on the processing

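Between HMGA1 siRNA and control siRNA no gene of the set was called under any of 17 settings. Only array weights called transcripts (198) and moved the median over the genes to 0.12, a fit with a weight of 6.80 on HMGA1 siRNA replicate 3. Leaving out 1 array gave 0 transcripts and 0 genes of the set throughout, with medians from -0.081 (without HMGA1 siRNA replicate 3) to 0.076 (without control siRNA replicate 3). With the replicate number as a block 0 transcripts passed (1118 at an unadjusted p under 0.05, smallest adjusted p 0.674). The numbers were not taken as pairs, since deviations from the group mean over all transcripts correlated at -0.201 for number 1, beside 0.255 for number 2 and 0.533 for number 3. Over the genes of the set they correlated at 0.697, 0.803 and 0.961. Across numbers, control siRNA replicate 1 correlated there with HMGA1 siRNA replicate 2 at 0.792, and control siRNA replicate 2 with HMGA1 siRNA replicate 1 at 0.625. Replicate 3 stood apart in both treatments, which moves arrays 1 and 2 to the other side whatever their number. These values thus cannot show which of them pair. Over all transcripts control siRNA replicate 1 correlated best with HMGA1 siRNA replicate 2 (0.419). Signs of uncalled differences changed in 71 values of 26 genes. For replicate 3 against the others, the main counts of 103 transcripts and 3 genes of the set became 5 genes after quantile normalization, 407 and 7 with the dimmest 40% left out, 371 and 6 with a trended and robust prior, 212 and 5 with transcripts of 1 symbol, 226 genes and 6 with the mean over a gene's transcripts, 247 and 5 at a threshold of 0.10, 164 and 5 without a treatment term, and 6341 and 20 with array weights, whose estimate did not converge and put 11.1 on each replicate 3 array. CA12, NDRG1 and PDK1 were among the genes called in all of these. With 1 array left out the counts ran from 0 to 1046 transcripts and from 0 to 9 genes of the set (both highest without HMGA1 siRNA replicate 1), where fits without 1 of the replicate 3 arrays take the other to vary like the rest. The F test over the 3 replicate numbers, with a replicate block, called 0 transcripts and 0 genes (2338 transcripts at an unadjusted p under 0.05, adjusted p = 0.115 for CA12 and NDRG1 and 0.169 for PDK1). No called difference changed sign, and uncalled ones did in 18 values of 8 genes. The interaction gave 0 calls under its 3 alternatives (374, 55 and 235 transcripts at an unadjusted p under 0.05).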
